A study of Caenorhabditis elegans with 2 samples.

Results

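GATA factors are proteins with a zinc finger that reads short DNA words with GATA at their core. The 9 genes described here encode GATA factors of Caenorhabditis elegans that act in the intestine, the epidermis and the early endoderm. They were chosen by name from a list of members, and they are 9 of 19973 annotated protein-coding genes of the nuclear chromosomes. Of these genes, 3 are intestinal (elt-2, elt-4 and elt-7), 4 are epidermal (elt-1, elt-3, egl-18 and elt-6) and 2 act in the early embryo (end-1 and end-3).

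The worm intestine descends from a single founder cell of the embryo. In that cell lineage END-1 and END-3 act briefly to specify endoderm, and ELT-2 and ELT-7 then take over and keep intestinal genes active for life. ELT-1 specifies epidermal fate in the embryo, ELT-3 acts in differentiating epidermis, and EGL-18 and ELT-6 maintain the seam cells, a stem-like row of epidermal cells. ELT-4 is a very small relative of ELT-2 for which no clear function is known.

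The assay was chromatin immunoprecipitation with sequencing of NHR-77, a nuclear hormone receptor, tagged with eGFP. Both samples were whole L4 larvae, the last larval stage, of mixed sex and of the strain OP353. These animals carry the allele unc-119(tm4063) on chromosome III and the transgene wgIs353, and neither the promoter of the fusion nor the tissues that make it are given in the sources used here. The samples are biological replicates 1 and 2 of 1 group, so no comparison between conditions exists. No untagged sample was analysed here, and recovery through NHR-77 cannot be told apart from recovery by other means. In whole animals, recovery in few cells and weak recovery in many cells cannot be told apart either.

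Each replicate has a list of 30000 regions, peaks and background together, and another such list was made from the pooled replicates. The authors' set of reproducible peaks, filtered on the irreproducible discovery rate (IDR), holds 3457 regions, all of them also the strongest 3457 of the pooled list. A rank below is the place of a region in a list by the authors' signal value, with 1 the strongest, so IDR ranks and pooled ranks are the same. The signal value is the authors' own, its definition is not stated, and its range differs between lists. An IDR peak is a region of the reproducible set. The read depth is unknown. Distances run from the nearest annotated transcript start of the gene to the summit, with negative values upstream, and all coordinates are of build ce11, counted from 1.

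Reference sequence at chosen summits near members is shown first. Each run below is the plus strand, 5′ to 3′, 50 bp either side of a pooled summit, read from the RefSeq copy of WBcel235, the same build as ce11. Capitals mark a GATA word on either strand, that is AGATAA, its variant AGATAG, the word TGATAA or its variant TGATAG, each also as its reverse complement. The first 4 runs lie upstream of elt-2 or in introns of elt-7 and elt-3, and the run of end-3 is given as a strong peak without such a word. Each of the first 4 holds such a word, so the runs do not stand for all summits near members.
elt-2 promoter peak, chrX:10480767-10480867: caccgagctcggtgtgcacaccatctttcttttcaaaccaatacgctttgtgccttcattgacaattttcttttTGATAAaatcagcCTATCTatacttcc
elt-2 upstream region just below the peak threshold, chrX:10479237-10479337: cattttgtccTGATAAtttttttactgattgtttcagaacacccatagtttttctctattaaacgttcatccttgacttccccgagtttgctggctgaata
elt-7 first intron, chrV:4771007-4771107: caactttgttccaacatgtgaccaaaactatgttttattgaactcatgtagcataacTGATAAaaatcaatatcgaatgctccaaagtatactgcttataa
elt-3 intron, chrX:13937589-13937689: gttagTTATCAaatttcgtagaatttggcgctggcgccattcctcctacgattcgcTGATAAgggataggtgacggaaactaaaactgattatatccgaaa
peak upstream of aip-1 and end-3, chrV:14012218-14012318: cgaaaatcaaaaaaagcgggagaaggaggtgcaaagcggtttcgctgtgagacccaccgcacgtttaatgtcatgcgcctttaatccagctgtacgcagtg

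At the 3′ end of end-1 a shorter run is shown, 29 bases of its 3′ UTR, because a pair of overlapping GATA words lies there.
end-1, chrV:13986994-13987022: ctcttaaatTTATCTTATCTttttatgtg

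IDR peaks lay within 5000 bp of a start of 4 of the 9 genes. The intestinal class had 2 of 3 genes with such a peak, the epidermal class 0 of 4 and the early embryonic class 2 of 2. Over all protein-coding genes the share was 31.1%, so 4 of 9 members is no result about the family. With a window of 500 bp only elt-2 had a peak, 1 of 9 members against 10.2% of all protein-coding genes. The 3 classes are small and neighbouring members share regions, so the difference between classes was described and not tested. The peaks counted for elt-4 and end-3 lay nearer to the starts of C39B10.7 and aip-1. Counted only for the nearest start, the classes had 1 of 3, 0 of 4 and 1 of 2 genes with a peak, against 13.9% of all protein-coding genes. The split by class is thus no result about the classes. In a window of 10000 bp, 2 of 4 epidermal genes had a peak, elt-1 and elt-3, and 47.4% of all protein-coding genes had one.

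A looser call added elt-7 and elt-3 to the members with a region. The authors' q-value was under 0.05 for at least 1 pooled region within 5000 bp of 3 of 3 intestinal genes, 1 of 4 epidermal genes and 2 of 2 early embryonic genes, together 6 of 9 against 53% of all protein-coding genes. In replicate 1 and in replicate 2 alone, 6 of 9 members also had a region with such a q-value, against 56.1% and 58.7% of all protein-coding genes. Within 500 bp, elt-2 and elt-7 had such a region and no epidermal or early embryonic gene did, 2 of 9 against 20.7%.

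**Figure D1:**
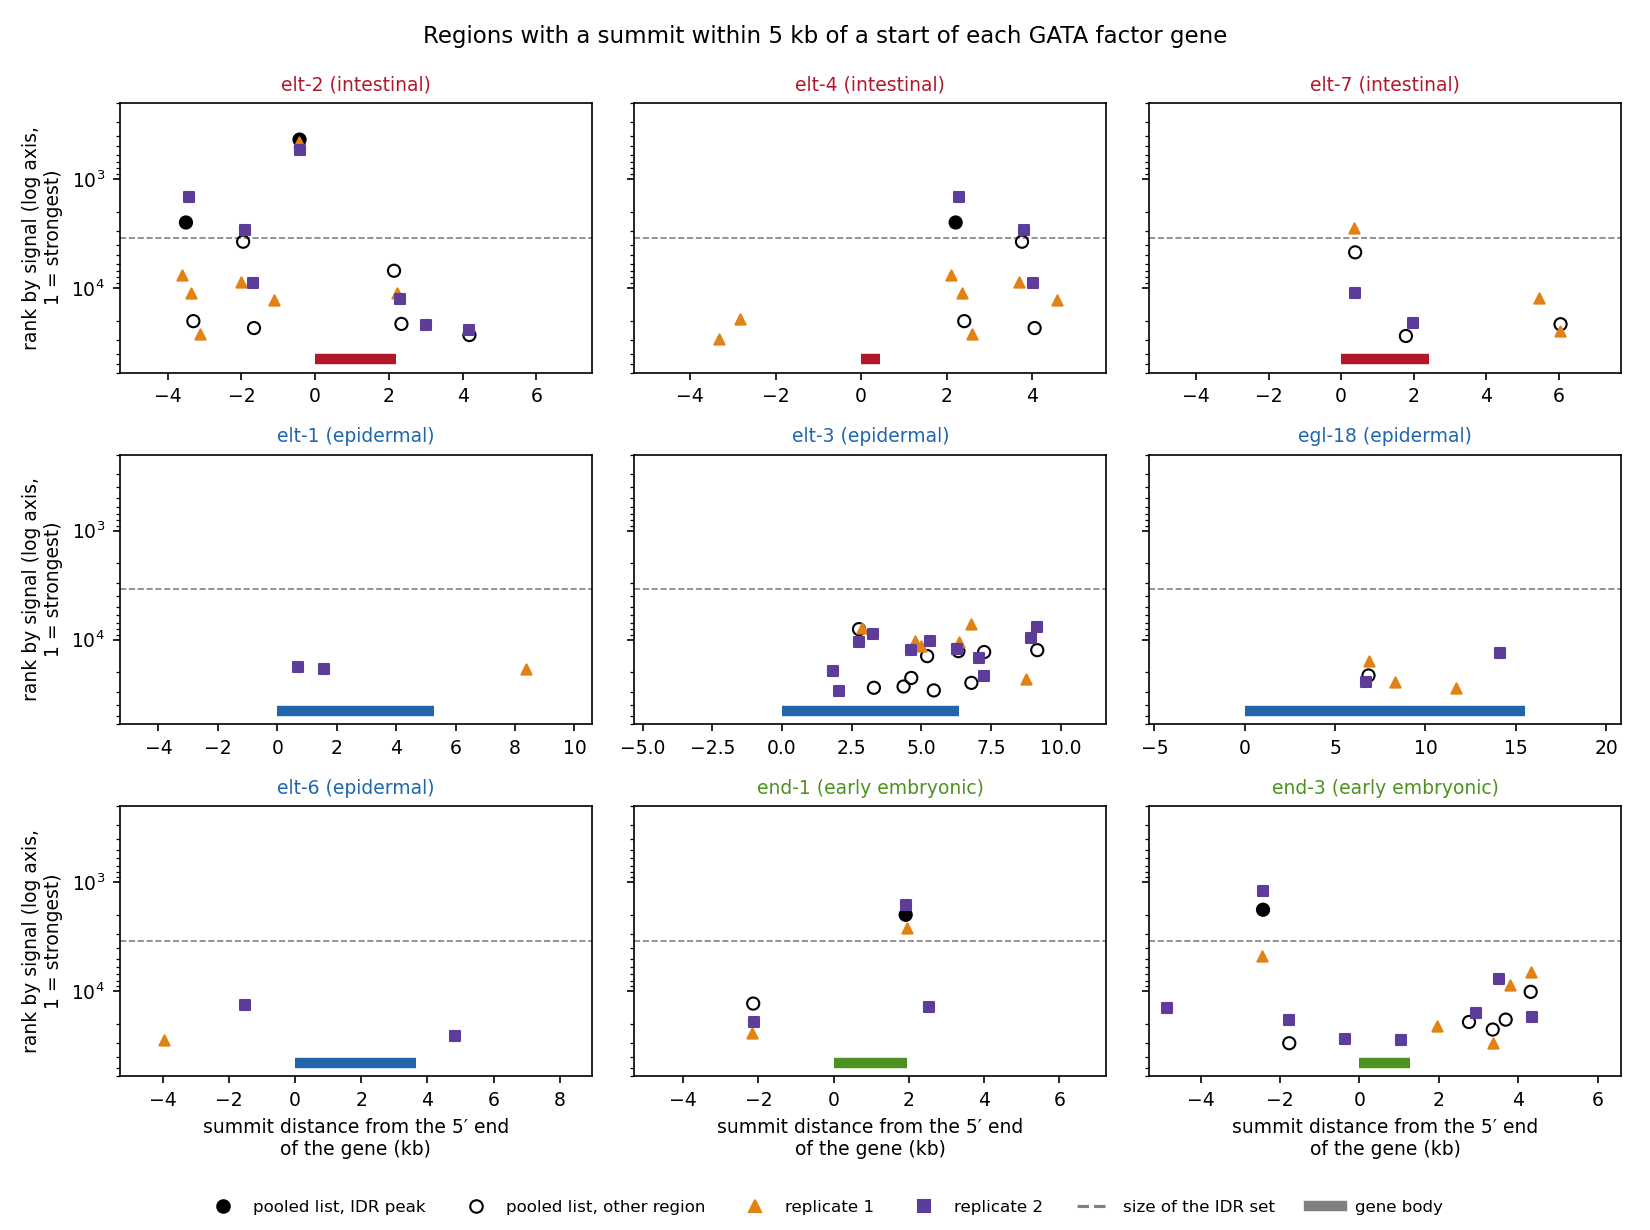
Each panel shows 1 GATA factor gene, with summit distance from its 5′ end in kb on the horizontal axis and rank by signal on a log vertical axis, strongest at the top; circles are pooled regions (filled for IDR peaks), triangles replicate 1 and squares replicate 2, the dashed line marks rank 3457 and the coloured bar is the gene body. Filled circles appear for elt-2, elt-4, end-1 and end-3 alone, and elt-1 and elt-6 have no pooled region.

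In all, 30 distinct pooled regions had a summit within 5000 bp of a member, 4 of them IDR peaks. Their signals ran from 9.03 to 115 with a median of 13.3, whereas all pooled regions had a median of 15.5. At least 1 pooled region lay near 7 of 9 members, against 76% of all protein-coding genes. A region of both replicate lists overlapped 19 of the 30, and a region of 1 replicate list overlapped the other 11. Pooled regions that lie side by side can overlap the same replicate region. When a replicate summit within 100 bp was required in both lists, 10 of the 30 remained.

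Among the intestinal genes, elt-2 had the strongest region of all members. The gene (WBGene00001250) spans chrX:10481240-10483441 on the plus strand and has 1 annotated start. Its promoter peak, chrX:10480756-10480856, had its summit at -423 bp, in intergenic DNA upstream of the gene. The peak ranked 459 in replicate 1 with a signal of 42.2, 543 in replicate 2 with a signal of 73.8 and 435 in the pooled list with a signal of 115. The ranks of both replicates were close, and the summit of replicate 1 lay at -10 bp from the summit shared by replicate 2 and the pool. There were 2 GATA words within 50 bp of the pooled summit. A TGATAA begins 24 bp after the summit, and a CTATCT, the reverse complement of the word AGATAG, begins 37 bp after it. The CTATCT, chrX:10480854-10480859, runs past the end of the peak. Within 50 bp of the replicate 1 summit there was 1 GATA word.

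A second IDR peak lay farther upstream of elt-2, between it and elt-4. This peak, chrX:10477557-10477916, had its summit at -3503 bp from elt-2 and at 2190 bp past the nearer start of elt-4, inside a UTR exon of C39B10.7, whose start was the nearest at 864 bp. It ranked 7566 in replicate 1 with a signal of 12.1, 1452 in replicate 2 with a signal of 49.7 and 2509 in the pool with a signal of 56.2. It was thus a strong region in replicate 2 and a weak one in replicate 1. The pooled summit had no GATA word within 50 bp, but the summits of replicate 1, at -99 bp from it, and of replicate 2, at 70 bp from it, each had 1.

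Another upstream region of elt-2 fell just under the threshold. At chrX:10479107-10479466 a region had its summit at -1953 bp, within an exon of the noncoding RNA gene C33D3.6. Its pooled signal of 43.9 lies below the lowest signal of an IDR peak, 46.7, and its pooled rank was 3767. It ranked 8855 in replicate 1 and 2928 in replicate 2, again stronger in replicate 2. The TGATAA in its run begins at -40 bp from the pooled summit. Within 50 bp of the replicate summits there was 1 GATA word in replicate 1 and 0 in replicate 2.

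The other 5 pooled regions near elt-2 were weak. That at 2139 bp, in the last exon of elt-2 (exon 9, in the UTR), ranked 6959 and had −log10 q of 1.99. Those at -3302, -1658, 2339 and 4183 bp ranked 20183, 23356, 21402 and 27067, the last in a coding exon of C33D3.3. None of these 4 had a q-value under 0.05. Beyond the pooled list, replicate 1 had a region of its own at -1125 bp (rank 12850) and replicate 2 had a region of its own at 3009 bp (rank 21874). The other regions of replicate 1 between elt-4 and elt-2 lay at -3358 bp (rank 11029) and -3128 bp (rank 26310) from elt-2, and replicate 1 had a region at 2233 bp (rank 11057) as well. Replicate 2 also had regions at -1694 bp (rank 9003), 2310 bp (rank 12625) and 4183 bp (rank 24468), and of these only that at -1694 bp had a q-value under 0.05.

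elt-4 had no region of its own in the pooled list. The gene (WBGene00001252) is 433 bp long, spans chrX:10475527-10475959 and begins 5713 bp upstream of elt-2. All 4 pooled regions within 5000 bp of its starts are also near elt-2, at 2190, 2391, 3740 and 4035 bp downstream of the elt-4 starts. Upstream of elt-4, regions were found in replicate 1 alone, at -3312 bp (rank 29246) and -2829 bp (rank 19455). The elt-4 peak is therefore the peak shared with elt-2 and C39B10.7, and it adds no independent site.

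elt-7 had no IDR peak within 5000 bp, but it had a region within its first intron. The gene (WBGene00015981) spans chrV:4770670-4773086 and has 2 annotated starts. The intronic region, chrV:4770877-4771236, had its summit at 387 bp, in intron 1 of transcript C18G1.2a.1. It ranked 2809 in replicate 1 with a signal of 20.5, 11057 in replicate 2 with a signal of 13 and 4715 in the pool with a signal of 37.2. Here the rank was higher in replicate 1, whereas the regions at -3503 and -1953 bp from elt-2 ranked higher in replicate 2. The summits of replicate 1 and replicate 2 lay at 348 and 387 bp.

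The intronic region of elt-7 held the longer GATA form known from intestinal genes. Its TGATAA begins 7 bp after the pooled summit and is part of CTGATAAA, of which CTGATAAG is the other form searched. The summit of replicate 1 had 0 GATA words within 50 bp, and that of replicate 2 had 1. If the 3457 strongest regions of replicate 1 alone are taken as peaks, elt-7 gains a peak and the distal peak of elt-2 and elt-4 and the peak of end-3 are lost. With those of replicate 2 alone, the 4 genes with peaks are elt-2, elt-4, end-1 and end-3. The nearest IDR peak to elt-7 was 48.9 kb away. Of its other pooled regions, that at 618 bp, in intron 3, ranked 27618 and that at 4882 bp, beyond the gene, ranked 21551. Replicate 1 alone had a region at 4294 bp (rank 12406). The weak pooled regions were each matched in 1 replicate, the intron 3 region at 817 bp in replicate 2 (rank 20804) and the distal region at 4879 bp in replicate 1 (rank 24881).

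Among the epidermal genes, elt-1 had no pooled region within 5000 bp of any of its 6 starts. The gene (WBGene00001249) spans chrIV:9614995-9620280. No pooled region was near 2 of 9 members, elt-1 and elt-6, against 24% of all protein-coding genes. Replicate 1 had 1 region, at 4039 bp (rank 18521), which is -8 bp from the start of W09C2.9. Replicate 2 had 2 regions, at -307 bp from an internal start (rank 17668, in intron 2 of W09C2.1a.1) and at 562 bp (rank 18421, in intron 4). All 3 were far down their lists, each was found in 1 replicate alone, and none had a q-value under 0.05.

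elt-3 had more pooled regions than any other member and no IDR peak among them. The gene (WBGene00001251) spans chrX:13934874-13941216 with 6 annotated starts, and 10 pooled regions lay within 5000 bp. That many or more were found for 3.17% of all protein-coding genes, whose median was 3. Genes with 6 starts offer a wider window, and the 113 such genes had a median of 8. The strongest, chrX:13937459-13937818, lay at -1104 bp from an internal start, in intron 2 of K02B9.4a.2, and it ranked 7859 in replicate 1, 10564 in replicate 2 and 8013 in the pool. Its −log10 q of 1.53 was the only one past 0.05 among the pooled regions of epidermal genes.

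The region in the intron of elt-3 had the longer GATA form as well. A TGATAA begins 6 bp after its pooled summit and continues as CTGATAAG, and a TTATCA, its reverse complement, begins at -45 bp. The summit of replicate 2 lay at -4 bp from the pooled summit, and that of replicate 1 at 102 bp. Within 50 bp, the summit of replicate 2 had 2 GATA words and that of replicate 1 had 0. Of the remaining 9 pooled regions of elt-3, the ranks ran from 12493 to 29242, and they were spread through the introns, a coding exon, the last exon and the DNA beyond the gene. In introns they lay at -570, -102, 174 and 358 bp with ranks 27661, 26934, 22465 and 14169. The coding region summit at 597 bp ranked 29242 and the summit at 1480 bp, in the UTR of the last exon, ranked 12752. Beyond the gene, summits lay at 1945, 2404 and 4309 bp with ranks 24931, 13005 and 12493.

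The single replicates gave elt-3 a q-value under 0.05 more often than the pool did. The whole lists differ in the same direction, with 9386 such regions in replicate 1 and 11287 in replicate 2 against 8873 in the pool. Replicate 1 had 6 regions near elt-3, 2 of them with such a q-value, and replicate 2 had 11, of which 5 had one. The strongest region in replicate 1 lay at 1919 bp (rank 7124) and the strongest in replicate 2 at 4313 bp (rank 7723), so the replicates did not share their strongest site. The other regions of replicate 1 that overlap the pooled list lay at -79, 122 and 1518 bp with ranks of 10396, 11533 and 10407. Those of replicate 2 lay in introns at -587, 182 and 466 bp (ranks 8797, 12405 and 10189) and in the UTR of the last exon at 1425 bp (rank 12188). Beyond the gene, replicate 2 had regions at 2202, 2404 and 4091 bp with ranks of 14793, 21647 and 9670. Regions with no pooled counterpart were at 3903 bp in replicate 1 (rank 22790) and at 1720 and -1825 bp in replicate 2 (ranks 19538 and 29543).

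The neighbours egl-18 and elt-6 had no region with a q-value under 0.05 in any list. egl-18 (WBGene00001186) spans chrIV:1902322-1917840, and elt-6 (WBGene00001253) spans chrIV:1917977-1921643, with 136 bp between the 2 genes. The only pooled region near egl-18, chrIV:1908965-1909324, lay at -4301 bp from an internal start, in intron 1 of F55A8.1a.2. It ranked 15634 in replicate 1, 24612 in replicate 2 and 21127 in the pool, and it had no GATA word within 50 bp of its summit. Replicate 1 also had regions at -2807 bp (rank 24319) and at 577 bp in a coding exon (rank 28050).

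elt-6 had no pooled region within 5000 bp. The region of replicate 1 in the coding exon of egl-18 lies at -3946 bp from elt-6. A region of replicate 2 in intron 3 of egl-18 lies at 3008 bp from egl-18 and at -1515 bp from elt-6 and ranked 13209. Another region of replicate 2 at 4847 bp ranked 25596 and was nearest to the start of denn-4. All were in 1 replicate alone, none had a q-value under 0.05, and the nearest IDR peak was at -42.7 kb from egl-18 and -58.4 kb from elt-6.

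Of the early embryonic genes, end-1 had its peak at the 3′ end and not at the start. The gene (WBGene00001310) spans chrV:13985128-13987074, and its IDR peak, chrV:13986860-13987219, had its summit at 1912 bp, in the UTR of the last exon (exon 4). It ranked 2601 in replicate 1 with a signal of 21.3, 1604 in replicate 2 with a signal of 47.8 and 1983 in the pool with a signal of 63.1. Among the 4 IDR peaks, the replicate ranks were nearer to each other only at the elt-2 promoter. An IDR peak summit inside the gene and within 5000 bp of a start was found for 1 of 9 members, end-1, against 4.23% of all protein-coding genes. The end-1 peak itself runs past the end of the gene.

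The end-1 peak had the most GATA words of the 4 IDR peaks at the pooled summits. There were 3 within 50 bp of its summit, the overlapping pair in the run above, which begin at -37 and -32 bp from the summit, and a TGATAA that begins 34 bp after it. Within 50 bp of the replicate 1 summit there was 1. At the 5′ side, a weak pooled region at -2140 bp ranked 12949, with eol-1 as the nearest start. It ranked 24321 in replicate 1 and 19134 in replicate 2. Replicate 2 alone had a region at 2534 bp (rank 13841).

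The peak assigned to end-3 by distance lay at the start of another gene. end-3 (WBGene00001311) spans chrV:14014695-14015980 and begins 29.6 kb from the start of end-1. The peak, chrV:14012088-14012447, had its summit at -2427 bp from end-3 and at -65 bp from aip-1, a gene induced by arsenite. It ranked 4759 in replicate 1 with a signal of 15.4, 1191 in replicate 2 with a signal of 54.6 and 1782 in the pool with a signal of 66.3. It had no GATA word in the run above and a GC content of 50.5%, the highest of the IDR peaks near members.

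The remaining regions of end-3 were weak and lay mostly near its downstream neighbours. Pooled regions at -1766, 2758, 3356, 3682 and 4312 bp ranked 29921, 19125, 22416, 18178 and 10103. The first lay in an intron of aip-1, the second in a coding exon of the chemoreceptor gene srh-308, and the fourth in a coding exon of mtl-2, a metallothionein gene of the intestine. Within end-3 itself, replicate 2 alone had a region in coding exon 4 at 1042 bp (rank 27875), and near its start a region at -374 bp (rank 27347). At 1942 bp, replicate 1 alone had a region that ranked 20800. Several downstream regions ranked higher in a single replicate than in the pool. Replicate 1 had regions at 3357, 3790 and 4315 bp with ranks of 29757, 8678 and 6587, the last 2 with a q-value under 0.05. Replicate 2 had regions at 2923, 3511 and 4349 bp with ranks of 15954, 7719 and 17221, and of these only that at 3511 bp, nearest to mtl-2, had such a q-value. Upstream, replicate 2 had regions at -4850 bp (rank 14367) and -1767 bp (rank 18505).

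When each peak was counted only for the gene with the nearest start, 2 of 9 members kept a peak, elt-2 and end-1. A start nearest to an IDR peak was found for 13.9% of all protein-coding genes. This way of counting was chosen after the regions were seen. The members on chromosome X were elt-2, elt-3 and elt-4, and 34% of the genes of X had an IDR peak within 5000 bp, against 30.6% of autosomal genes.

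**Figure D2:**
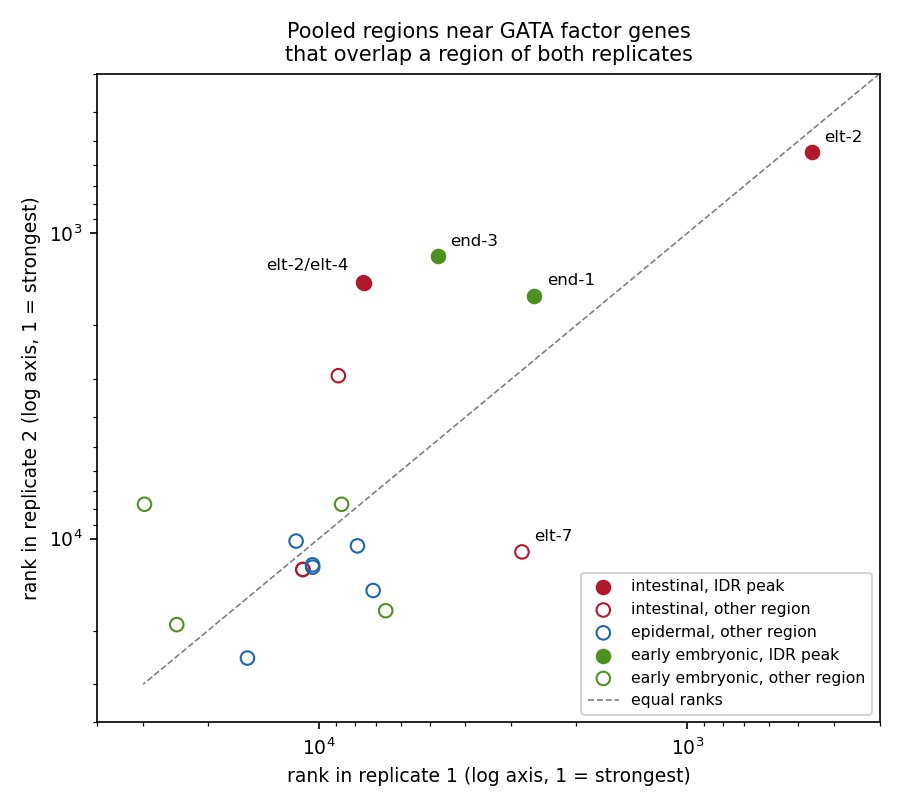
Each circle is a pooled region near a member that overlaps a region of both replicates, with its rank in replicate 1 on the horizontal and in replicate 2 on the vertical log axis, strongest at the top right; filled circles are IDR peaks, colours give the class of the gene and the dashed line marks equal ranks. The elt-2 promoter peak (459 and 543) lies near the line, the peaks shared by elt-2 and elt-4 and near end-3 rank higher in replicate 2, and the elt-7 intron ranks higher in replicate 1.

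Neither replicate ranked the regions higher throughout. Of the 19 pooled regions near members that overlap both lists, 10 ranked higher in replicate 1 and 9 ranked higher in replicate 2. By class, the intestinal regions ranked higher in replicate 1 in 4 of 7 cases, the epidermal regions in 5 of 6 and the early embryonic regions in 1 of 6. The cases are not independent, because side-by-side pooled regions were matched to the same replicate regions. This holds for those at -3503 and -3302 bp and at 2139 and 2339 bp from elt-2. Replicate 2 alone is shared by those at 3356 and 3682 bp from end-3. The epidermal cases were all near elt-3, apart from the only pooled region of egl-18. The share over all pooled regions is not given, and the classes were not tested. No difference between classes is therefore read from these counts. With 2 replicates, no error of a rank was estimated.

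**Figure D3:**
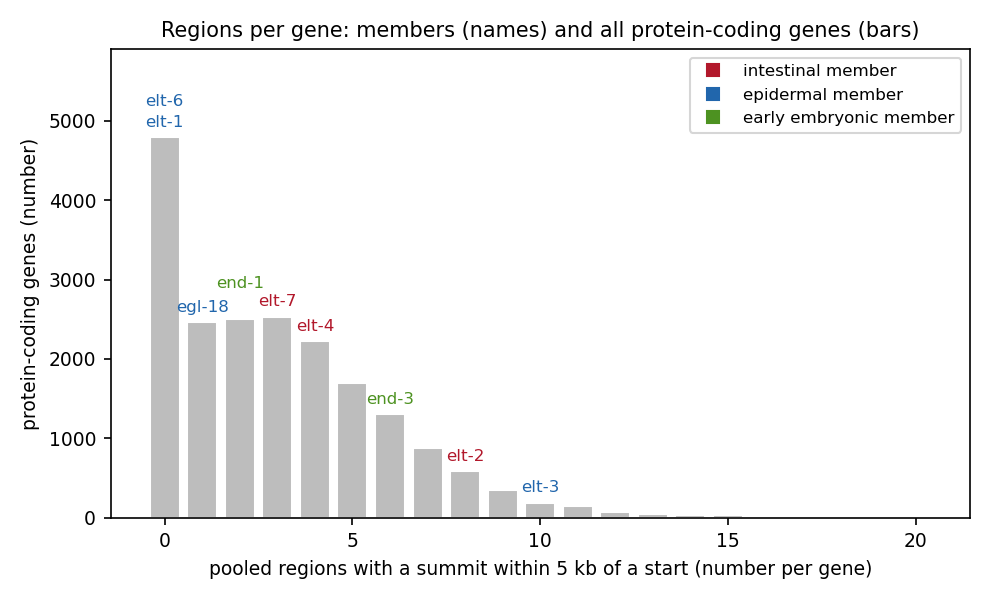
Bars give the number of protein-coding genes, on the vertical axis, with each number of pooled regions within 5 kb of a start, on the horizontal axis, up to 20 regions (35 genes have more); member names stand above the bar of their own count, coloured by class. elt-1 and elt-6 are at 0 and elt-3 is at 10, while the median of all genes is 3.

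GATA words were counted at all regions of the family. Of the 4 IDR peaks near members, 2 had a GATA word within 50 bp of the summit, those of the elt-2 promoter and end-1, against 40.2% of all IDR peaks. Of the 26 pooled regions outside the IDR set, 12 had one, against 25.2% of all pooled regions outside it. Of these 12, 6 lay near the single gene elt-3. By class, a GATA word was found at 5 of 11 intestinal, 6 of 11 epidermal and 3 of 8 early embryonic regions. These class counts take IDR peaks and other pooled regions together, and 27% of all pooled regions had one. The classes were not tested against that share. Of the 11 epidermal regions, 10 lay near elt-3, and the other, near egl-18, had no GATA word. Of the 11 intestinal regions, 8 lay near elt-2. The early embryonic regions at -1766 and 3356 bp from end-3, both with a GATA word, had aip-1 and srh-308 as the nearest start. The class counts thus largely describe the regions of single genes. The longer form was found at 1 of 4 IDR peaks, that of end-1, against 7.41% of all IDR peaks, and at 2 of the 26 others, in the introns of elt-7 and elt-3, against 2.58%. The longer forms contain TGATAA, so each is also counted as a GATA word. A match is a description of the sequence and not a site of binding.

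Other genes of the same pathways were taken from 5 lists that were drawn up with earlier results of these data known. Of 16 intestinal genes known to need ELT-2 or to carry GATA sites, 8 had an IDR peak within 500 bp and 10 within 5000 bp, against 10.2% and 31.1% of all protein-coding genes. Of 6 genes that act above the GATA factors in endoderm specification, 0 had a peak within 500 bp and 2 within 5000 bp, those of skn-1 and sys-1. Of 10 epidermal regulators, 1 had a peak within 500 bp and the same gene within 5000 bp. Of 11 structural genes of the epidermis, 0 had a peak within 500 bp and 4 within 5000 bp.

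The 5 intestinal genes with the strongest peaks within 500 bp were lys-8, act-5, spl-1, mtl-1 and pept-1. The peak of lys-8, a lysozyme gene, was at -186 bp and ranked 1710 in replicate 1, 468 in replicate 2 and 741 in the pool. The peak of act-5, which encodes the actin of intestinal microvilli, was at -224 bp and ranked 1040, 694 and 786 in the same lists. The gene spl-1, for a sphingosine-phosphate lyase, had its peak at -310 bp with ranks of 1777, 826 and 1081. The metallothionein gene mtl-1 had its peak at -261 bp, ranked 2829, 1534 and 2027, and the peptide transporter gene pept-1 had its peak at -70 bp, ranked 1335, 3796 and 2404. Each of these 5 peaks was upstream of its gene and weaker in the pool than the elt-2 promoter peak, which ranked 435. This holds only within 500 bp of a start. Within 5000 bp, the strongest pooled region of spl-1 ranked 212 and that of cpr-1, of the same list, ranked 337.

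Among the epidermal regulators, blmp-1, which encodes a zinc finger repressor, had its peak in an intron at 422 bp, with ranks of 973 in replicate 1, 3077 in replicate 2 and 1919 in the pool. Of 4 genes for other GATA-type zinc finger proteins, med-1, med-2, egl-27 and lin-40, 1 had a peak within 5000 bp, against 31.1% of all protein-coding genes. That gene was egl-27, with its peak in an intron at 434 bp and ranks of 83, 163 and 125 in the same lists. EGL-27 is a chromatin factor of the MTA type. The near-identical copies med-1 and med-2 are also among the endoderm specification genes, and reads may not separate them.

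The pattern of the elt-2 promoter peak over both replicates and the pool was compared with that of 4987 other genes. The measure was the Euclidean distance of log2 rank over the 3 lists, made from 2 replicates. The nearest were Y57E12AL.1 and Y57E12AL.6, which share 1 region with ranks of 445, 526 and 409 in replicate 1, replicate 2 and the pool (distance 0.11). The next was cyp-37B1, a cytochrome P450 gene, with ranks of 430, 518 and 449 (distance 0.125).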

How the data were processed

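ChIP-seq regions of 2 biological replicates were analysed in build ce11. The lists hold a signal value per region (column 7), the −log10 of a q-value (column 9) and the summit offset (column 10), all deposited by the authors and read by the narrowPeak column convention. Per the deposited file listings, the IDR set was derived from the pooled and both replicate lists, and each of those lists from alignments and 1 further file that both replicates share and that the listings do not describe. The labels name a possible control. No source used here states the aligner, peak caller, IDR threshold or read depth. The ce10 lists were not used. The IDR set has its −log10 q at the highest value of its list, 3.87, for every region, so q could not order the peaks.

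Regions were placed with Ensembl annotation release 115 of WBcel235; 0 regions ran past a chromosome end. Summits within 5000 bp of any protein-coding transcript start were kept. Replicate regions were matched to pooled regions by an overlap of at least 1 bp, taking the strongest. Members, classes and gene lists were chosen with earlier results of these data known. All members are named; each other list names its genes with an IDR peak within 500 bp, at most 5. No test was made, since there is 1 group. Alternatives changed the window, the start, the peak set and the overlap. The code was tested on simulated data. Python 3.11.15, numpy 2.4.6 and matplotlib 3.10.9 were used.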

Additional observations from a re-analysis of the deposited data

How the results depend on the processing

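Of 61 alternative values for the counts of genes, peaks and regions, 45 stayed within 1.5 times the reported count, or at 0 where that count was 0. The latter holds for the epidermal members with an IDR peak. Only the count was compared, so a change of genes at a similar count is not seen in it. With the strongest 3457 regions of replicate 1 alone, the intestinal members with a peak were elt-2 and elt-7, in place of elt-2 and elt-4. With a window of 2000 bp, 2 members had an IDR peak (elt-2 and end-1), at 2 distinct peaks, 1 of them intestinal and 1 early embryonic. With 10000 bp, 2 epidermal members had one. With the strongest 1728 peaks of the IDR set, 1 member had a peak (elt-2, intestinal), at 1 distinct peak, which had a GATA word, and 0 early embryonic members had one. With only the nearest start counted, which was chosen after seeing the data, 2 members had a peak. Within 250 bp of a start, 0 members had one. Within 25 bp of the summit, 0 IDR peaks near members had a GATA word. With a replicate summit required within 100 bp, 10 pooled regions recurred in both replicates. With the strongest 3457 regions of either replicate alone, the count of members ran from 3 to 4 within 5000 bp and from 1 to 2 within 500 bp, that of early embryonic members from 1 to 2 and that of distinct peaks from 3 to 5. No paired analysis was possible because there is only 1 group. The depth is unknown, so the precision of a signal value cannot be given.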

Other observations

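Around the members without an IDR peak within 5000 bp, the nearest peak was described after the regions had been seen. For elt-1 it lay 6665 bp beyond an internal start and at -926 bp from W09C2.10, with ranks of 2167 in replicate 1, 3869 in replicate 2 and 2731 in the pool, and it had 1 GATA word within 50 bp of its summit. For elt-3 it lay 6021 bp beyond an internal start, at -3363 bp from alg-1, which encodes an Argonaute protein of the microRNA pathway, and it was close to the lower end of the IDR set, with a pooled rank of 3438. For both egl-18 and elt-6 it lay at egl-4, a cGMP-dependent protein kinase gene, with a pooled rank of 1229.

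Other words were searched at the same summits on both strands. The half-site of many nuclear receptors, AGGTCA, was at 0 of the 4 IDR peaks near members, against 3.15% of all IDR peaks, and at 2 of the 26 other pooled regions near members, against 2.61% of all pooled regions outside the IDR set. The variant AGTTCA was at 0 of 4, against 5.35%, and at 4 of 26, against 6.41%. These counts are small and were not tested. The E-box CACGTG was at 0 of 4, against 5.55%, and at 0 of 26, against 1.91%. The repeat GAGAGAGA was at 1 of 4, against 4.95%, and at 0 of 26, against 1.67%.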
